A study of Mus musculus with 16 samples.

Results

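Cd36, Msr1, Colec12, Lpl, Fabp4, Fabp5, Plin2, Dgat1, Pnpla2 and Pparg are 10 mouse genes. Their products act in the uptake, transport, droplet storage or breakdown of lipid, or in the control of these steps. The rows of the 10 genes were found by gene symbol in a table of read counts for 46078 genes. All 10 were among the 15096 genes with enough counts to be tested. RNA sequencing gave their levels in 16 libraries of spinal cord lesions from C57BL/6 mice aged 8 to 12 weeks. Every animal, controls included, had received lysolecithin, a lipid that acts as a detergent on the myelin sheath and demyelinates the axons. The lesion was cut from frozen cord by laser microdissection, and the small amount of RNA was amplified before poly(A) selection, per the labels' protocols. The 4 groups held 4 libraries each: control mice at day 5 (replicates 1, 2, 5 and 6), mice that exercised in a running wheel at day 5 (1, 2, 7 and 12), control mice at day 10 (2, 3, 4 and 5) and exercise mice at day 10 (13, 17, 18 and 19). Exercise was voluntary, and the controls had a wheel that was locked. The labels do not say that each library comes from its own animal, so a p-value here speaks of the spread over these libraries only.

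When myelin breaks down, microglia and macrophages engulf the debris, which is rich in cholesterol and fatty acids. Scavenger receptors bind modified lipoproteins and lipid debris at the cell surface, fatty acid binding proteins carry the released fatty acids, and acyltransferases turn the surplus into triglyceride and cholesteryl ester. These neutral lipids are held in droplets with a perilipin coat, and cells filled with them are known as foamy phagocytes. Lipases release the fatty acids again, and nuclear receptors of the PPAR family, partnered with RXR, switch on many of the genes involved when fatty acids bind them. Since the lesion is a mixture of cells, these data cannot say which cell type each RNA came from.

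Promoter sequences are shown for 2 genes that fell together between the days, Cd36 and Plin2, and for 1 that did not pass the test, Pnpla2. The table of RefSeq promoters (GRCm38.p6) held 4 of the 10 genes: these 3 and Pparg, which has 3 start sites there. Each sequence is the 250 bases before the RefSeq start, written 5′ to 3′ along the gene's strand: chr5:17835897-17836146 (minus) for Cd36, chr4:86670060-86670309 (minus) for Plin2 and chr7:141454938-141455187 (plus) for Pnpla2. Capitals mark every match, on either strand, to the motifs searched: AGGTCA (bound by nuclear receptors such as PPAR and RXR), CCAAT (NF-Y) and GGGCGG (Sp1).
Cd36: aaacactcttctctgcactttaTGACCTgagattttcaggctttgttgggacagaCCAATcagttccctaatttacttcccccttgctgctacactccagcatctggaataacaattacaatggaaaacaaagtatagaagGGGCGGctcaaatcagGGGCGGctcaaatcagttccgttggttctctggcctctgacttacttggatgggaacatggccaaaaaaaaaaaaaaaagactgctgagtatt
Plin2: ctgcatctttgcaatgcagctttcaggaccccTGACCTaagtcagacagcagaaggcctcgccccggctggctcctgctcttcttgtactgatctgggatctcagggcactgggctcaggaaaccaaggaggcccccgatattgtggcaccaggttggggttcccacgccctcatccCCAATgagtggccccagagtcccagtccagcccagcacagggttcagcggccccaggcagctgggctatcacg
Pnpla2: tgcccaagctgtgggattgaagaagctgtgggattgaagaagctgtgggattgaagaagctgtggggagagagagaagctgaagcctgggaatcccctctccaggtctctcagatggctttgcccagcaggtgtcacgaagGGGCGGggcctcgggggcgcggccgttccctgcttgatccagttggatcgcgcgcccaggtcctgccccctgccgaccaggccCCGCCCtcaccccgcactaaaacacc
The other 6 motifs searched matched in none of the 3 sequences. They were AGGTCANAGGTCA, the direct repeat bound by PPAR with RXR, TGACNNNGC, bound by NRF2 and found in 10.2% of all windows, and GAGGAAGT, bound by the macrophage factor PU.1 and found in 2.45%. The core motif ACGTG, bound by HIF, was found in 16.7% of all windows. Its longer form CACGTG, bound by the lysosomal regulators MITF and TFEB, was found in 6.04%. The box TATAAA was found in 12.3%.

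AGGTCA matched on the opposite strand 228 to 223 bases before the start of Cd36 and 218 to 213 bases before that of Plin2, and it did not match in the Pnpla2 window. It also matched in 2 of the 3 windows of Pparg, at 28 to 23 and at 9 to 4 bases before the start. Pparg was called in neither condition alone, but was lower at day 10 on average over both (edgeR adjusted p 0.0464). That call was lost in 13 of the 16 fits that left out a library. AGGTCA was found in 14% of the 32536 distinct promoter windows of this length. CCAAT, found in 33.8% of windows, lay 195 to 191 bases before the Cd36 start and 73 to 69 before the Plin2 start. GGGCGG, found in 33%, matched 2 times before Cd36 (109 to 104 and 93 to 88 bases) and 2 times before Pnpla2 (109 to 104 and 26 to 21 bases). The full direct repeat, found in 0.0338% of windows, matched in none of the 6 windows of the 4 genes. The RefSeq start of Cd36 lies 52905 bases downstream of the 5′ end of the gene as it was counted. The bases just after it were not found in the GENCODE transcripts of Cd36, and those of other genes were not searched. The Plin2 start lies 1 base from the counted 5′ end. A match is a run of letters, and nothing in these libraries measured binding.

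Library totals ran from 8.13 to 13.93 M counts (M, mega). At day 5 every exercise library was shallower (8.13 to 10.93 M) than every control library (11.2 to 13.93 M). The share of counts in the mitochondrial ribosomal RNA gene mt-Rnr2 also separated these groups, at 10.91% to 12.94% with exercise and 8.05% to 10.28% in control. At day 10, the counts of exercise replicate 17 differed from those of replicates 13 and 18 by 51.0 and 57.7 times sampling noise (chi-square per degree of freedom), above the 9.87 to 30.1 of all same-group pairs without it, and from those of replicate 19 by 27.0, within that range. Replicate 17 had the highest summed level of homeostatic microglial markers of the 16 libraries, 15988 CPM. Markers of the labelled tissue were present throughout: summed over 10 oligodendrocyte and myelin markers the libraries held 11039 to 27902 CPM, and over 8 astrocyte markers 3110 to 7561 CPM. CPM are counts per M of library size, scaled by TMM (trimmed mean of M-values), and values below follow the order of the replicate numbers.

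The 10 genes covered a wide span of abundance. Per length of exon (RPKM, reads scaled to exon length in kilobases and to library size in M, mean of the 4 groups), Lpl stood first at 382 and Fabp5 second at 297, followed by Plin2 at 129, Colec12 at 95.6, Cd36 at 55.0 and Msr1 at 51.8. Pnpla2 at 5.58, Fabp4 at 4.67, Dgat1 at 2.76 and Pparg at 1.07 RPKM formed the lower end. Several neighbours in this order did not differ beyond their spread. At day 5 in control, Lpl at 368 ± 47.8 RPKM (SD, n = 4) overlapped Fabp5 at 358 ± 69.5, and Cd36 at 94.2 ± 23.4 overlapped Colec12 at 90.4 ± 8.33 and Msr1 at 77.4 ± 16.8. At day 10 in control, Lpl (374 ± 49.01) lay above Fabp5 (206 ± 7.51), Colec12 (88.2 ± 16.3) lay above Cd36 (16.6 ± 2.98), and Msr1 (21.6 ± 2.33) overlapped Cd36 in its SD range. The order depends on the length used: on the longest protein-coding transcript, Fabp5 came first at 1073 RPKM and Lpl second at 633, Colec12 came to 39.6 and Fabp4 to 23.4; the counted exon length of Fabp4, 4489 bases, is its whole gene span. Summed over the 10 genes, the mean level at day 5 was 5465 CPM in control and 5456 CPM with exercise, and at day 10 it was 4002 and 4628 CPM. Lpl and Fabp5 made up 66.1% to 73.6% of that sum in the control libraries at day 5 and 79.7% to 84.8% at day 10.

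**Figure D1:**
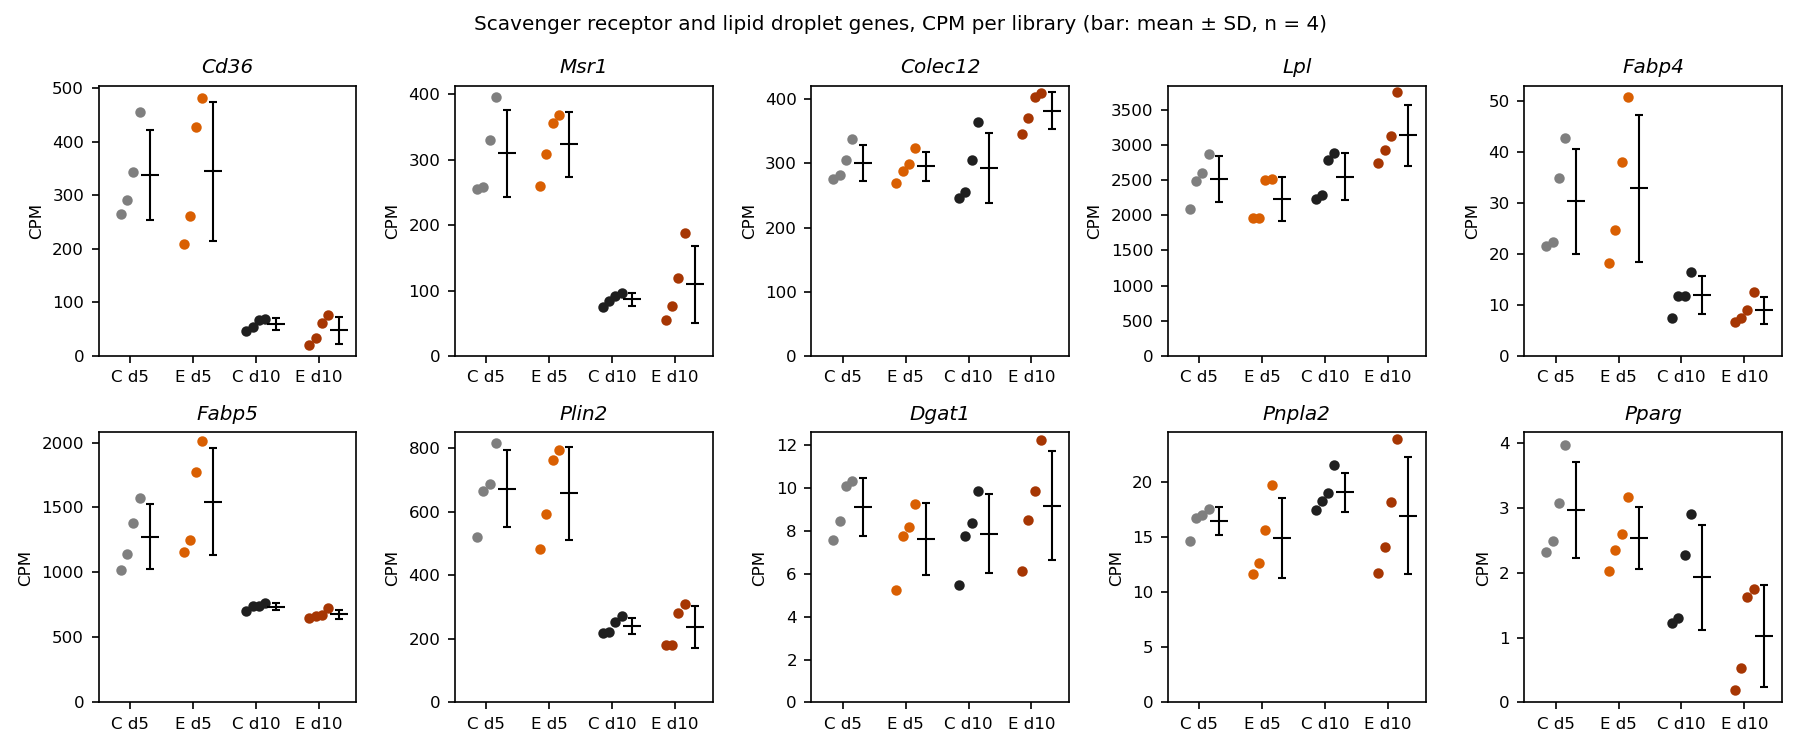
Level of each of the 10 genes in every library (CPM, linear axes from 0; C, control; E, exercise; d5 and d10, day 5 and day 10). Each point is a library and each bar the mean with its SD over 4 libraries. Cd36, Msr1, Plin2, Fabp4 and Fabp5 drop from day 5 to day 10 in both conditions, while Lpl, Colec12, Dgat1 and Pnpla2 show no such drop. Pparg has lower means at day 10 in both conditions, with days that overlap in control and separate in exercise.

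Between day 5 and day 10, which asks how the lesion itself changed, 5 genes fell in control and in exercise alike: the scavenger receptors Cd36 and Msr1, the droplet coat gene Plin2 and the fatty acid carriers Fabp4 and Fabp5. Cd36 fell most, 5.67-fold in control and 7.25-fold in exercise, and Fabp5 least, 1.73-fold and 2.28-fold. Lpl rose 1.41-fold in exercise, a call that was lost in 3 of the 8 fits that left out a library of that comparison. No change was called in either condition for Colec12, Dgat1, Pnpla2 and Pparg. By edgeR's quasi-likelihood test with Benjamini-Hochberg adjustment over 15096 genes, 5 of the 10 were lower and none higher in control, where 6.64% of all genes tested were lower and 5.66% higher. In exercise, 5 were lower and 1 higher, against 4.9% lower and 5.17% higher of all genes. The median log2 change of the 10 was -0.71 in control and -1.25 in exercise, against 0.01 over all genes in both. The 10 genes were chosen with earlier results of these data known, so these shares and medians describe them and are no test. The control and exercise comparisons share no library, but both come from 1 fit over all 16 libraries and share its estimates of spread. In whole lesions, fewer cells of a type and less RNA per cell cannot be told apart.

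Cd36 (ENSMUSG00000002944, GRCm38, chromosome 5, 17781690 to 17888801, minus strand) encodes a class B scavenger receptor that also imports long-chain fatty acids. In control lesions it stood at 454, 343, 291 and 265 CPM at day 5 and at 69.2, 67.8, 47.2 and 54.1 CPM at day 10. With exercise it stood at 209, 428, 481 and 262 CPM at day 5 and at 32.9, 76.3, 19.8 and 61.4 CPM at day 10. The highest day 10 library, exercise replicate 17, lay below the lowest day 5 library, exercise replicate 1. The log2 change was -2.50 (SE 0.36, 95% interval -3.28 to -1.73, adjusted p 0.00046) in control and -2.86 (SE 0.37, -3.64 to -2.07, adjusted p 0.000321) in exercise by edgeR. Non-overlap towards lower values was seen in 10.7% of all genes in control and 7.09% in exercise.

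Msr1 (ENSMUSG00000025044, chromosome 8, 39581700 to 39642678, minus strand) encodes the class A macrophage scavenger receptor, a surface trimer that binds oxidised lipoproteins. Its control libraries held 395, 330.0, 254 and 258 CPM at day 5 and 74.3, 84.1, 95.6 and 91.1 CPM at day 10. Its exercise libraries held 309, 357, 368 and 260.5 CPM at day 5 and 75.6, 188, 55.4 and 119 CPM at day 10. Day 5 and day 10 did not overlap in either condition, although replicate 17 stood above the other 3 day 10 exercise libraries. The log2 change was -1.84 (SE 0.28, adjusted p 0.000445) in control and -1.56 (SE 0.27, adjusted p 0.00191) in exercise. Without replicate 17 the exercise value was -1.95.

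Colec12 (ENSMUSG00000036103, chromosome 18, 9707648 to 9877995, plus strand) encodes a class A scavenger receptor with a collectin head, best known from endothelium. In control it held 337, 276, 282 and 305 CPM at day 5 and 255, 305, 364 and 247 CPM at day 10, which overlap. With exercise it held 325, 298, 288 and 269.9 CPM at day 5 and 346, 370.4, 409 and 403 CPM at day 10, where every day 10 library lay above every day 5 library, as in 7% of all genes tested. The log2 change was -0.04 (-0.28 to 0.21) in control and 0.37 (0.12 to 0.62) in exercise. The exercise change did not pass the edgeR threshold (adjusted p 0.0531), and DESeq2 gave an adjusted p of 0.026. The summed level of 10 endothelial markers was 194 to 236 and 192 to 227 CPM in control and 199 to 251 and 147 to 256 CPM in exercise at the earlier and the later day. By edgeR, 4 of these 10 markers were lower at day 10 in exercise and none in control.

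**Figure D2:**
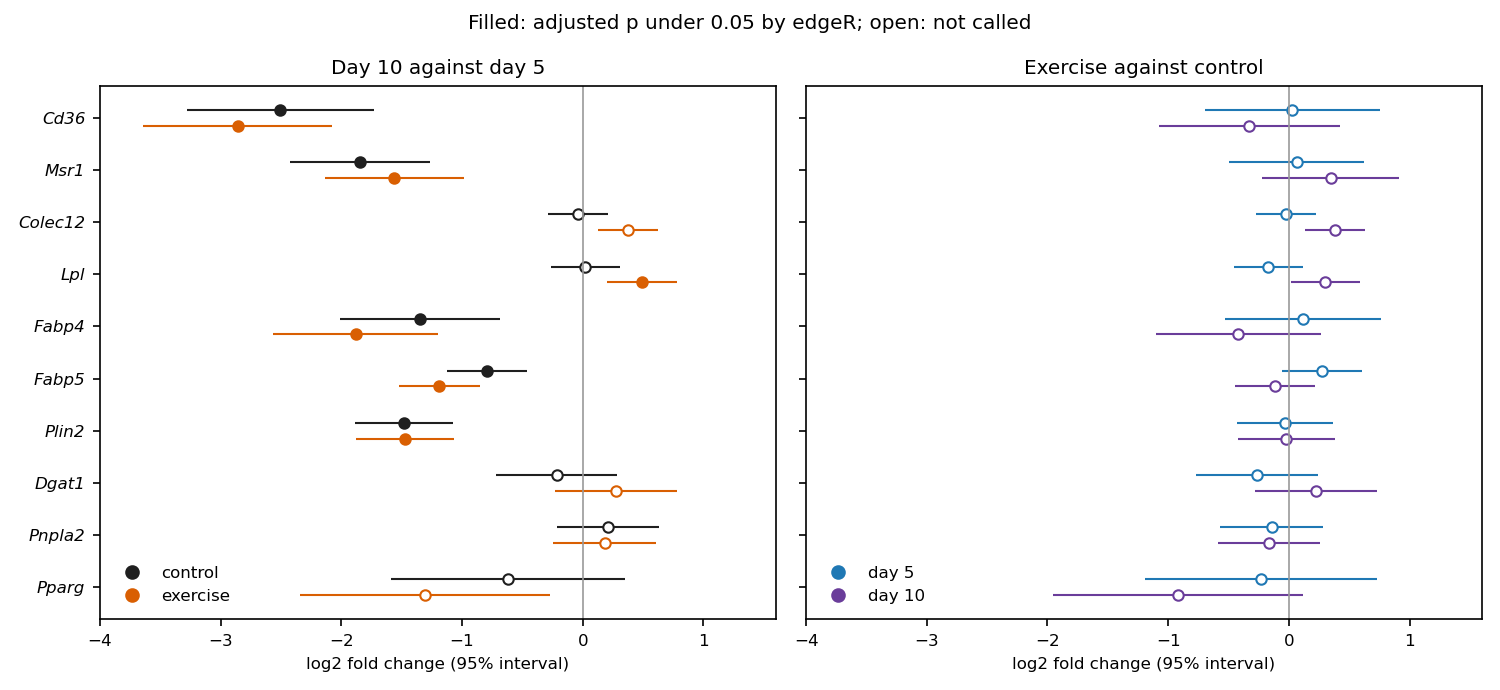
Log2 fold change of each gene with its 95% interval; the left panel sets day 10 against day 5 within control and within exercise, and the right panel sets exercise against control at each day. Filled points passed an adjusted p of 0.05 by edgeR; the 11 filled points all lie in the left panel, and every exercise effect is open.

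Lpl (ENSMUSG00000015568, chromosome 8, 68880491 to 68907448, plus strand) encodes lipoprotein lipase, the secreted enzyme that frees fatty acids from lipoprotein triglyceride. Control lesions held 2483, 2593, 2871 and 2085 CPM at day 5 and 2230.0, 2289, 2785 and 2879 CPM at day 10. Exercise lesions held 1956, 2508, 2496 and 1955 CPM at day 5 and 3128, 3743, 2929 and 2742 CPM at day 10. The days overlapped in control and separated in exercise, where replicate 17 was the highest of all 16 libraries. Separation upwards in exercise was seen in 7% of all genes tested. The log2 change was 0.02 (-0.26 to 0.31, adjusted p 0.942) in control and 0.49 (SE 0.14, 0.21 to 0.78, adjusted p 0.0279) in exercise. The rise in exercise lost its call without replicate 17 of day 10 (log2 0.40, adjusted p 0.0536), without replicate 1 or 12 of day 5 (up to 0.0852), when only the exercise libraries were fitted (0.0711) and with a replicate block (0.0682). The difference between the conditions, 0.47 on the log2 scale (0.07 to 0.88), did not pass (adjusted p 0.521), so a rise particular to exercise was not shown.

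Fabp4 (ENSMUSG00000062515, chromosome 3, 10204088 to 10208576, minus strand) and Fabp5 (ENSMUSG00000027533, chromosome 3, 10012548 to 10016607, plus strand) encode small cytosolic carriers of fatty acids, known from adipocytes and macrophages and from epidermis and macrophages. Fabp4 stood at 42.7, 34.7, 22.3 and 21.4 CPM in control at day 5 and 16.5, 11.8, 7.35 and 11.8 CPM at day 10. With exercise it stood at 18.2, 37.9, 50.6 and 24.7 CPM at day 5 and 6.61, 7.51, 9.04 and 12.5 CPM at day 10. Its day 5 and day 10 libraries did not overlap in either condition. The log2 change was -1.35 (SE 0.32, adjusted p 0.00946) in control and -1.88 (SE 0.33, adjusted p 0.0016) in exercise.

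Fabp5 was the more abundant carrier, with 1573, 1377, 1016 and 1139 CPM in control at day 5 and 701, 738, 738 and 766 CPM at day 10. Its exercise libraries held 1156, 2009, 1773 and 1246 CPM at day 5 and 649.7, 729, 666 and 672 CPM at day 10. The 8 libraries of day 10 were tightly grouped and all lay below the lowest library of day 5. Its log2 change was -0.79 (SE 0.16, adjusted p 0.00315) in control and -1.19 (SE 0.16, adjusted p 0.000234) in exercise. Of the 75-base words in its transcripts, 3.02% also occur in the genes Gm14328 and Gm6166, so that reads from them cannot be assigned to 1 gene. Markers of adipocytes, which carry Fabp4 in fat, were near 0: Cidec, Lep and Cfd had 0 counts in all 16 libraries, Plin1 had 1, Adipoq 5, Retn 6 and Adrb3 28, and Thrsp alone was tested.

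Plin2 (ENSMUSG00000028494, chromosome 4, 86648386 to 86670060, minus strand) encodes perilipin 2, the coat protein found on the droplets of most cells. Control lesions held 818, 689, 521 and 667 CPM at day 5 and 219, 273, 253 and 221 CPM at day 10. Exercise lesions held 485, 764, 795 and 593 CPM at day 5 and 182, 281, 179.7 and 309 CPM at day 10. All day 10 libraries lay below all day 5 libraries. Its fall was 2.79-fold in control (log2 -1.48, SE 0.19, adjusted p 0.000138) and 2.77-fold in exercise (-1.47, SE 0.19, adjusted p 0.000218).

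Dgat1 (ENSMUSG00000022555, chromosome 15, 76502015 to 76511951, minus strand) encodes an enzyme of the last step of triglyceride synthesis, and Pnpla2 (ENSMUSG00000025509, chromosome 7, 141455198 to 141460743, plus strand) encodes adipose triglyceride lipase, which opens the breakdown of stored triglyceride. Dgat1 ranged from 5.25 to 12.2 CPM over the 16 libraries, with group means from 7.61 ± 1.70 (SD, n = 4) in exercise at day 5 to 9.18 ± 2.55 in exercise at day 10. Pnpla2 ranged from 11.7 to 23.9 CPM, with group means from 14.9 ± 3.61 in exercise at day 5 to 19.04 ± 1.78 in control at day 10. Both genes overlapped between the days in each condition. The log2 change of Dgat1 was -0.21 (-0.72 to 0.29) in control and 0.27 (-0.23 to 0.78) in exercise. That of Pnpla2 was 0.21 (-0.21 to 0.63) and 0.18 (-0.24 to 0.61). The intervals hold changes of either sign, and their lower ends all lie above the fall of Plin2.

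Pparg (ENSMUSG00000000440, chromosome 6, 115361221 to 115490401, plus strand) encodes PPARγ, a nuclear receptor that fatty acids activate and whose known targets include Cd36, Fabp4, Lpl and Plin2. It was the rarest of the 10, with 2 to 50 counts per library. Control lesions held 3.98, 3.08, 2.50 and 2.33 CPM at day 5 and 2.28, 2.91, 1.30 and 1.23 CPM at day 10. Exercise lesions held 2.35, 3.17, 2.60 and 2.03 CPM at day 5 and 0.186, 1.76, 0.532 and 1.62 CPM at day 10. The days overlapped in control and separated in exercise, where 7.09% of all genes tested separated downwards. The log2 change was -0.62 (-1.59 to 0.35, adjusted p 0.418) in control and -1.31 (-2.34 to -0.27, adjusted p 0.101) in exercise, and neither passed. Without exercise replicate 17 the second passed (-1.70, adjusted p 0.0465).

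Averaged over control and exercise, 6 of the 10 genes were lower at day 10 and none higher, where 11.5% of all genes tested were lower and 11.8% higher. These were the 5 genes above and Pparg (log2 -0.96, SE 0.34, adjusted p 0.0464 by edgeR), whose call was lost in 13 of the 16 fits that left out a library (adjusted p up to 0.0921). Lpl (0.26, adjusted p 0.0622), Pnpla2 (0.20), Colec12 (0.17) and Dgat1 (0.03) did not pass. The 5 genes called in both conditions kept their call and their direction in every fit that left out a library. In all 5, each of the 8 libraries of day 10 lay below each of the 8 of day 5, which held for 2.19% of all genes tested.

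Markers of several cell types moved with these changes. Of 9 tested markers of monocyte-derived macrophages, 4 were lower at day 10 in control, 4 in exercise and 6 on average over both, and none was higher. Their summed level was 1123 to 3093 CPM in control at day 5 and 620 to 985 CPM at day 10, and 1138 to 2338 and 746 to 1566 CPM in exercise. Fn1, a matrix gene that fibroblasts also express, was the most abundant of these markers, and Ms4a8a was at 0 counts in 14 of the 16 libraries. Arg1, a marker of alternatively activated macrophages, went from 309 ± 178 CPM (SD, n = 4) at day 5 to 32.1 ± 9.82 CPM at day 10 in control. The list was not uniform there: in control, 6 of the 9 tested markers lay below 0 on the log2 scale and 3 above. In exercise all 9 lay below 0.

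Of 6 tested markers of perivascular and meningeal macrophages, 3, 2 and 4 were lower in control, in exercise and on average. Their summed level went from 225 to 777 CPM at day 5 to 135 to 171 CPM at day 10 in control and from 278 to 435 CPM to 96.4 to 325 CPM in exercise, most of it from F13a1, which both macrophage lists contain. All 8 cell cycle genes listed were lower at day 10 in both conditions, with a summed level of 428 to 468 CPM at day 5 and 104 to 151 CPM at day 10 in control, and 372 to 497 and 121 to 252 CPM in exercise. By contrast, of 10 markers shared by phagocytes at large, 3 were higher and 1 lower in control and 5 higher and 1 lower in exercise. Their summed level was 3315 to 4329 CPM at day 5 and 2989 to 3800 CPM at day 10 in control, and 3586 to 3848 and 3352 to 5599 CPM in exercise. Of 10 homeostatic microglial markers, 3 were higher in control and 6 in exercise, and none was lower. Their summed level did not follow in control, where it was 8183 to 10881 CPM at day 5 and 6649 to 9313 CPM at day 10, while in exercise it was 6903 to 9525 and 7233 to 15988 CPM.

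Markers of cells other than phagocytes moved with the day as well. Of the 10 oligodendrocyte and myelin markers, 6 were higher at day 10 in control, 3 in exercise and 9 on average, and none was lower. Their summed level was 11039 to 15156 CPM at day 5 and 24312 to 27257 CPM at day 10 in control, and 12245 to 17239 and 12179 to 27902 CPM in exercise. Of the 8 astrocyte markers, 5 were higher in control and 2 in exercise, and of 10 markers of fibroblasts and meninges 4 and 1, with none lower in either list. The fibroblast sum went from 827 to 3149 CPM at day 5 to 4403 to 5745 CPM at day 10 in control, and overlapped between the days in exercise. Of 8 neuronal markers, 3 were lower in control and 4 in exercise, and none was higher. The part of any of these cell types in the fall of the 5 genes was not tested.

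**Figure D3:**
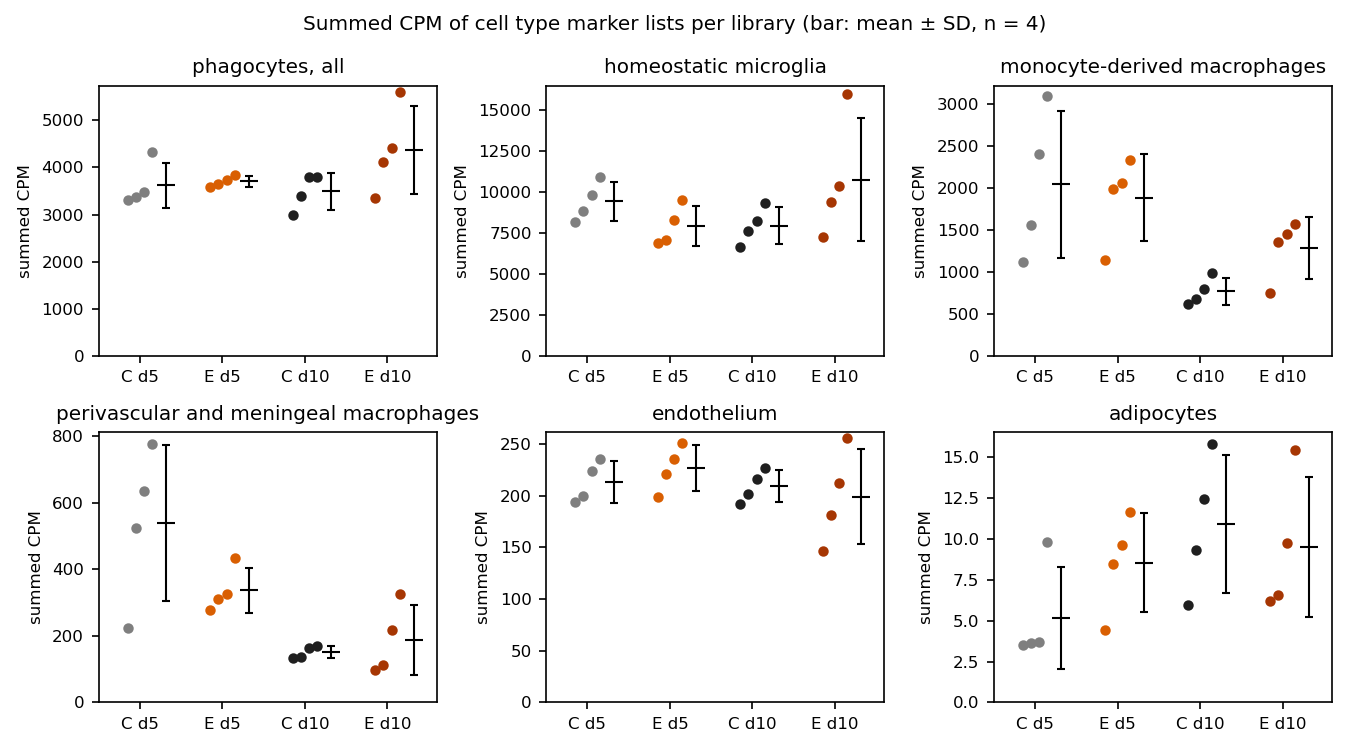
Summed CPM of 6 marker lists in every library (linear axes from 0; C, control; E, exercise; d5 and d10, day 5 and day 10), with the mean and SD over 4 libraries as bars. The lists of monocyte-derived and of perivascular and meningeal macrophages have lower means at day 10, the phagocyte list overlaps between the days, and the adipocyte list, which is almost wholly Thrsp, never exceeds 15.8 CPM.

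The 5 genes that fell also varied together from library to library. Over the 16 libraries, the Pearson correlation of log2 CPM among the 10 pairs of Cd36, Msr1, Plin2, Fabp4 and Fabp5 was 0.82 to 0.98, a range that contains the difference between the days. After each group's mean was taken out, it was 0.23 to 0.84, with Cd36 and Plin2 the closest pair (0.84) and Msr1 and Fabp4 the least close (0.23). The pattern was not particular to these 5 genes. Pparg correlated with them at 0.65 (Fabp5) to 0.78 (Cd36) over all libraries and at 0.33 (Fabp5) to 0.73 (Cd36) within groups. In control at day 5, replicate 1 was the highest library for all 5 genes. With exercise at day 5, replicate 1 was the lowest for Cd36, Plin2, Fabp4 and Fabp5, but not for Msr1. Among the 6 pairs of Lpl, Colec12, Dgat1 and Pnpla2, the correlation was -0.14 to 0.50 over all libraries and -0.40 to 0.54 within groups. These values describe the libraries, which share their scaling and their mix of cells, and carry no test.

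Among all genes tested, Plin2 was the gene most like Cd36 (r = 0.977 over 16 libraries), followed by Txn1 (0.969) and Ap3s1 (0.966). The order of these 3 rests on the difference between the days: with each group's mean taken out, r was 0.838 for Plin2, 0.857 for Txn1 and 0.875 for Ap3s1. The genes named here were picked by r over all libraries, and all genes were not ranked within groups. Msr1 was closest to Spp1 (0.982), which encodes osteopontin, Gla (0.981), a lysosomal galactosidase, and Adam8 (0.979). Spp1 itself averaged 8029 CPM in control at day 5 and 940.1 CPM at day 10. Plin2 was next closest to Gla (0.972) and Rps27l (0.971), Fabp4 to Cd93 (0.968), Cfp (0.961) and Il7r (0.960), and Fabp5 to Actg1 (0.976), Ftl1 (0.970), the ferritin light chain, and Diaph1 (0.961). Lpl was closest to Ccl9 (0.856), Hcls1 (0.848) and Ccl6 (0.848), of which Ccl9 and Ccl6 encode chemokines. With each group's mean taken out, the order among the genes named changed for Msr1, Fabp4, Fabp5 and Lpl too. Gla (0.895) then stood above Spp1 (0.889) for Msr1, and Il7r (0.879) above Cd93 (0.856) for Fabp4. Ftl1 (0.910) stood above Actg1 (0.889) for Fabp5, and Ccl6 (0.813) above Ccl9 (0.756) for Lpl. For Plin2, Cd36 (0.838) stayed above Gla (0.835). The best matches of the remaining genes were Zc3h12d for Pparg (0.916), Med20 for Colec12 (0.839), Tcaf2 for Pnpla2 (0.810) and Mccc2 for Dgat1 (0.765). Within groups these pairs stood at 0.856, 0.729, 0.819 and 0.846, in the same order.

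Exercise against control, which asks whether running changed the lesion, gave no call for any of the 10 genes at either day. At day 5, 0 of the 15096 genes passed by edgeR (1513 had an unadjusted p under 0.05, none of them among the 10), and 0 of the 10 passed by DESeq2 or limma-voom. Cd36 averaged 338 ± 83.9 CPM in control and 345 ± 129.8 CPM with exercise (SD, n = 4), with a log2 difference of 0.03 (-0.70 to 0.75). Plin2 averaged 674 ± 122 and 659 ± 146 CPM, a difference of -0.03 (-0.43 to 0.37). Fabp5 differed most clearly of the 10, from 1276 ± 248 to 1546 ± 411 CPM, yet with overlapping groups and an interval across 0 (0.28, -0.05 to 0.61, adjusted p 0.57). The other 7 lay between -0.26 (Dgat1) and 0.12 (Fabp4). Control and exercise overlapped for all 10 genes, as they did for most genes: 3.33% of all tested separated upwards and 3.97% downwards. Depth and the mt-Rnr2 share separate the day 5 groups, and their part in these values was not tested.

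At day 10, 0.192% of all genes tested passed by edgeR (16 higher and 13 lower), and 0 of the 10 did. By edgeR, 1935 of the 15096 genes had an unadjusted p under 0.05, of which 2, Colec12 and Lpl, were among the 10. The count of 29 depended on single libraries: it was 0 to 2 without control replicate 2, 3 or 5 or exercise replicate 13, 17 or 19, 19 without control replicate 4, 133 without exercise replicate 18 and 0 when only the day 10 libraries were fitted. None of the 10 separated the groups, against 3.3% of all genes separated upwards and 2.58% downwards. Colec12 came nearest, from 293 ± 54.1 CPM in control to 382 ± 29.5 with exercise (log2 0.38, 0.14 to 0.63, unadjusted p 0.00448, adjusted p 0.192); the groups overlapped through control replicate 4. Lpl averaged 2546 ± 334 CPM in control and 3136 ± 435 with exercise (0.30, 0.01 to 0.59, adjusted p 0.366). Pparg averaged 1.93 ± 0.809 and 1.02 ± 0.783 CPM (-0.92, -1.96 to 0.12, adjusted p 0.447), on counts as low as 2. Plin2 stood at 241 ± 26.05 and 238 ± 66.9 CPM, with a difference of -0.02 (-0.42 to 0.38). Cd36 differed by -0.33 (-1.08 to 0.42), Fabp4 by -0.42, Fabp5 by -0.12, Pnpla2 by -0.17 and Dgat1 by 0.23. Msr1 averaged 86.3 ± 9.30 and 109.7 ± 58.9 CPM, a difference of 0.35 (-0.22 to 0.91) that turned to -0.05 without replicate 17. At day 10 the summed level of homeostatic microglial markers was 6649 to 9313 CPM in control and 7233 to 15988 CPM with exercise, and all 10 markers lay above 0 on the log2 scale with none called. The 10 markers shared by phagocytes at large all lay above 0 too (median log2 0.30), and 1 was called higher. Of 10 markers of fibroblasts and meninges, 7 lay below 0 and 3 above (median -0.34), and 1 was called lower. The sum of monocyte-derived macrophage markers was 620 to 985 and 746 to 1566 CPM, most of it Fn1, yet 6 of the 9 tested lay below 0 (median log2 -0.70), 1 was called lower and none higher. Endothelial markers lay below 0 in 9 of 10 cases (median -0.75, none called). The summed level of 8 mural cell markers separated the groups, at 348 to 371 CPM in control and 229 to 296 CPM with exercise, and 1 of them was called lower. The part of these cell types in the day 10 values was not tested.

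Averaged over the days, 0 of the 10 passed, against 0.146% of all genes. That share is a count of 22, which ran from 0 to 100 over the fits that left out a library. By edgeR, 2053 of the 15096 genes had an unadjusted p under 0.05 here, of which 1, Colec12, was among the 10. The test of whether the exercise effect differed between the days called 0 of the 15096 genes by edgeR (1376 at an unadjusted p under 0.05) and 0 of the 10 by any tool. Colec12 (0.41, 0.06 to 0.76) and Lpl (0.47, 0.07 to 0.88) had the largest effects for their error, each with an unadjusted p of 0.0252 and an adjusted p of 0.521. For Cd36 the difference was -0.35 (-1.40 to 0.69) and for Plin2 0.01 (-0.55 to 0.57), so that differences of more than 1 on the log2 scale are outside the interval for Plin2 but not for Cd36. A p that misses the threshold does not show that exercise left these genes as they were.

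The authors' deposited table for exercise against control gave no adjusted p under 0.05 for the 10 genes at either day. At day 10, where the table lists 7 libraries without exercise replicate 17, the authors' deposited log2 change was 0.39 for Colec12 (adjusted p 0.268), -0.66 for Cd36 (0.399), -0.16 for Fabp5 (0.503) and -0.06 for Msr1 (0.971). The deposited unadjusted p-values of Colec12, Cd36 and Fabp5 there were 0.0112, 0.0266 and 0.0491. In the fit without that library, Cd36 stood at -0.65 (edgeR adjusted p 0.552) and Msr1 at -0.05.

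Other genes of these pathways moved in both directions between the days, and none that was tested was called in an exercise comparison. The lists were described by counts and medians, beside 11.8% higher and 11.5% lower and a median log2 change of 0.01 over all genes for day 10 against day 5 averaged over the conditions. Of 13 tested scavenger and lipoprotein receptors, 3 were higher and 2 lower, with a median of -0.04. Lower were Stab1, a receptor of macrophages and sinusoidal endothelium (203 ± 17.3 to 118 ± 27.2 CPM, SD, n = 8; log2 -0.79, edgeR adjusted p 1.08e-05) and the endosomal macrophage protein gene Cd68 (1108 ± 133 to 657 ± 206 CPM; -0.76, 0.000889). Higher were Cxcl16 (0.61, 0.0033), a receptor for oxidised lipoprotein and phosphatidylserine, Vldlr (0.43, 0.00854) and the astrocyte engulfment receptor gene Megf10 (0.41, 0.0405). Marco, Cd163 and Olr1 had too few counts to be tested.

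Of 10 tested genes of droplet coats and droplet formation, 2 were lower and none higher, with a median of -0.07. Hilpda, which encodes a droplet protein that inhibits Pnpla2's enzyme, fell from 12.9 ± 4.03 to 4.22 ± 2.22 CPM (log2 -1.61, adjusted p 0.000844), and Bscl2, the seipin gene, from 51.1 ± 4.72 to 39.4 ± 6.74 CPM (-0.38, 0.00765). Of 15 tested genes of triglyceride and cholesteryl ester synthesis, 4 were higher and 2 lower, with a median of 0.04. Dgat2, whose enzyme performs the same step as that of Dgat1, rose from 3.51 ± 0.951 to 8.71 ± 2.85 CPM (1.30, 0.000524), Gpam by 0.75 and Acsl1 by 0.28 on the log2 scale. Soat1, the gene for the enzyme that esterifies cholesterol, fell from 611 ± 83.1 to 435 ± 91.5 CPM (-0.49, 0.00422), and Acsl5 fell by 0.40.

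Of 9 tested genes of ester breakdown, 1 was higher and 3 lower, with a median of 0.01. Lipa, the lysosomal acid lipase gene, fell from 934 ± 192 to 565 ± 97.8 CPM (log2 -0.72, adjusted p 0.000535), Nceh1 from 397 ± 67.8 to 286 ± 33.5 CPM (-0.47, 0.00171) and Abhd5, whose protein activates Pnpla2's enzyme, by 0.23. Mgll, the monoglyceride lipase gene, rose from 49.8 ± 6.18 to 67.7 ± 14.8 CPM (0.43, 0.00626).

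Of 14 tested regulators of lipoprotein lipase and carriers of fatty acids, 2 were higher and 5 lower, with a median of -0.24. Apoc1, an apolipoprotein that restrains lipoprotein lipase, rose from 9.62 ± 3.78 to 40.1 ± 9.32 CPM (log2 2.07, adjusted p 3.8e-06), with every day 10 library above every day 5 library. Apoc4 rose by 1.24 (0.0302). The carrier gene Fabp7 (-0.45, 0.00236), Got2 (-0.29, 0.00814) and Furin (-0.46, 0.0102) were lower. Apoc2, the activator of the lipase, was lower too, from 637 ± 156 to 399 ± 125 CPM (-0.67, 0.0118), and is named here after its values were seen.

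Of 23 tested partners and targets of PPARs, 2 were higher and 3 lower, with a median of 0.04. The fatty acid oxidation genes Acadl (103 ± 14.7 to 70.4 ± 9.33 CPM; log2 -0.55, adjusted p 0.000274) and Cpt1a (206 ± 22.9 to 146 ± 14.1 CPM; -0.49, 0.000276) fell, as did Nr1h3, the gene for the oxysterol receptor LXRα (5.08 ± 1.64 to 2.43 ± 0.984 CPM; -1.06, 0.0078). Rxrb (0.49, 0.0153) and Ppard (0.62, 0.0362) rose. Ppara had too few counts to be tested.

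**Figure D4:**
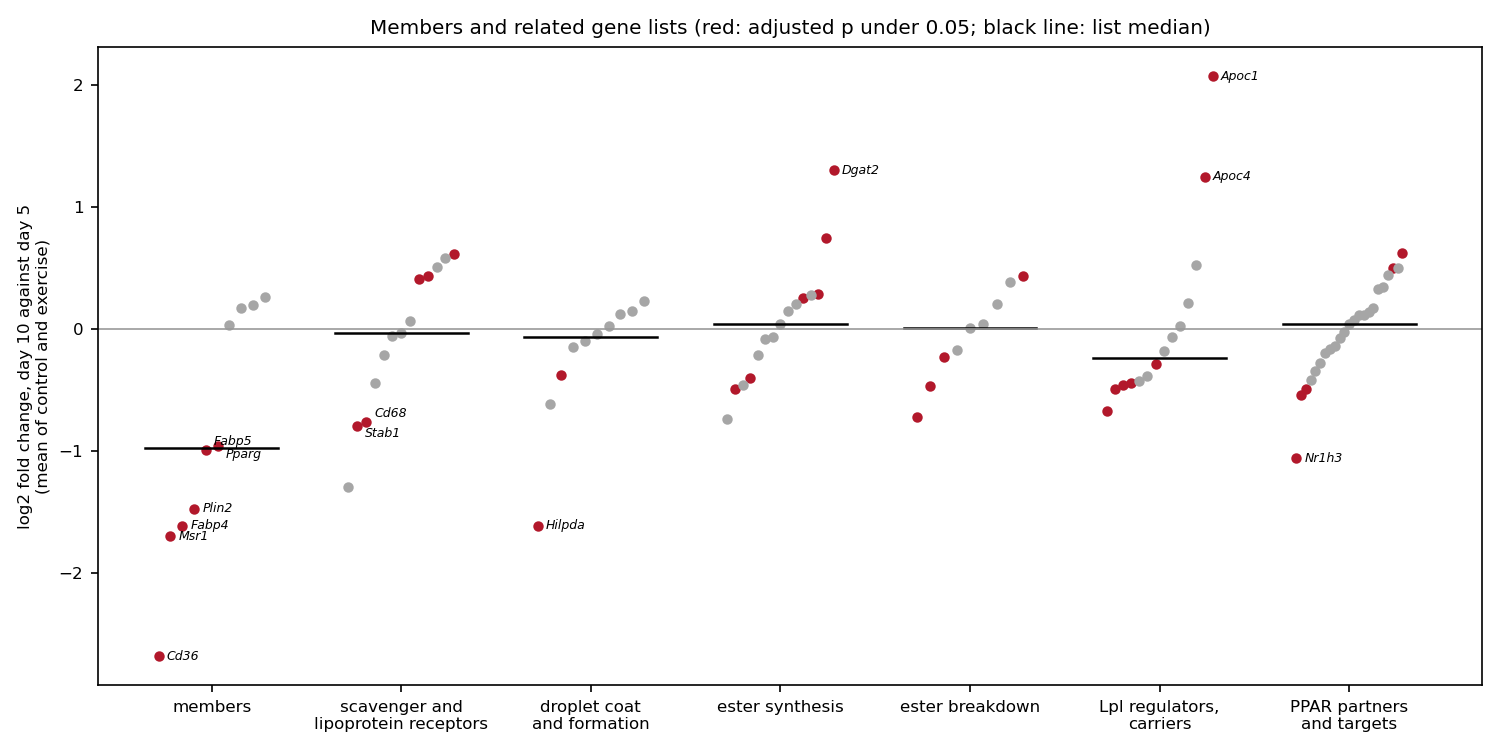
Log2 fold change of day 10 against day 5, averaged over control and exercise, for the 10 genes (members) and for the tested genes of 6 related lists, sorted within each list; red points passed an adjusted p of 0.05 by edgeR, grey points did not, and black lines are medians. The median of the 10 genes is -0.98, while the medians of the 6 lists lie between -0.24 and 0.04. The genes and lists were chosen with earlier results of these data known, so the medians are a description.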

How the data were processed

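RNA was measured in 16 libraries in 4 groups of 4. Per the labels' protocols, RNA was amplified and made into strand-specific, poly(A)-selected libraries read as single reads of 75 bases. The labels name REPLI-g for the amplification and do not say whether it keeps the strand, which bears on what counts of sense reads hold; amplification can change the proportions of rare RNAs such as Pparg. FastQC 0.11.4, TopHat2 2.0.10, Bowtie 1.1.2 and the build GRCm38 are named in the submitters' processing notes. Raw counts per Ensembl gene were deposited, made with featureCounts 1.5.0-p1, which counted sense reads, per the file headers. The authors' deposited tables for exercise against control give log2 fold changes, p-values and a mean normalized signal per gene, which was not used.

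Symbols came from GENCODE mouse release 21 and named 45143 of 46078 genes. EdgeR 4.0.16 in R 4.3.3 kept 15096 genes (filterByExpr, minimum count 10, minimum total 15), scaled by TMM and fitted 1 mean per group with robust quasi-likelihood dispersions over all 16 libraries (12 residual degrees of freedom; common biological coefficient of variation 0.236). Adjusted p-values are Benjamini-Hochberg over 15096 genes with a threshold of 0.05. SE is the log2 change over the root of F, and 95% intervals use the model's degrees of freedom. The fit was tested on simulated data. Alternatives were RLE scaling, DESeq2 1.42.0, limma-voom (3.58.1), no filter, only the groups compared, a replicate block and leaving out each library. The 10 genes and the lists were chosen with earlier results of these data known. Genes named from lists are those called, at most 3 per direction by p, and Apoc2. The lists' counts and medians leave out 2 genes that are not reported here.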

Additional observations from a re-analysis of the deposited data

How the results depend on the processing

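The number of the 10 genes called moved little: 5 for day 10 against day 5 in control under every alternative, 5 to 7 in exercise (7 by DESeq2, 5 with only the groups compared), 5 to 7 on average (7 by DESeq2 and limma-voom, 5 without the count filter) and 0 in each exercise comparison and the interaction. Leaving out each library gave 5, 5 to 6 and 5 to 6 for the 3 day comparisons. The labels do not say what shared replicate numbers mean, and same-numbered libraries did not deviate together (correlations of -0.07 to 0.07). With the replicate block the counts were 5, 5 and 5. The block ended the calls of Lpl in exercise and of Pparg on average (adjusted p 0.156) and lowered the count of all genes called from 1520 to 918 for the day change in exercise (856 with only the groups compared, 975 without exercise replicate 7 of day 5), and for exercise against control from 29 to 0 at day 10 and from 22 to 0 on average over the days. Fits of only the groups compared were not run for averages and the interaction, which use all 4 groups. By DESeq2, 79 genes were called at day 5, 218 at day 10, 323 on average over the days and 13 in the interaction (0, 29, 22 and 0 by edgeR), none of them among the 10.

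Calls near the threshold changed for Pparg, Lpl and Colec12, the last by DESeq2 in exercise (0.026). Pparg on average missed it without the count filter (0.0588), and Lpl on average passed it by limma-voom (0.0493) and DESeq2 (0.0367). Reversals of sign concerned effects that were never called. At day 5, exercise against control for Cd36 was -0.0233 with the block and -0.0263 by limma-voom, and leaving out libraries gave -0.172 to 0.209 for Cd36, -0.171 to 0.332 for Fabp4, -0.137 to 0.0933 for Plin2, -0.0197 to 0.208 for Msr1 and -0.0693 to 0.0400 for Colec12. At day 10 it gave -0.173 to 0.0835 for Plin2 and -0.0491 to 0.555 for Msr1, and on average over the days -0.109 to 0.051 for Dgat1 and -0.101 to 0.0369 for Plin2. The interaction of Plin2 was -0.0154 by limma-voom and -0.143 to 0.118 without single libraries, that of Pnpla2 -0.245 to 0.133 and that of Msr1 -0.105 to 0.492. For day 10 against day 5, Colec12 ran from -0.159 to 0.0315 and Lpl from -0.0486 to 0.0895 in control, Pnpla2 from -0.0322 to 0.345 in exercise, and Dgat1 from -0.0568 to 0.103 on average, with -0.024 under the block. The causes were not tested.

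The 40 group levels moved by less than their SD without TMM factors. The length used for RPKM was an alternative chosen after seeing the data. The depth of 8.13 to 13.93 M counts leaves Pparg, with 2 to 50 counts, the least precise of the 10.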
